A study of Mus musculus with 4 samples.

Results

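The genes Slc6a4, Cbln2, Nptx1, Nefm, Snap25 and Dclk1, which are best known from neurons, had lower signals in mouse gonocytes cultured with retinoic acid (RA) than in gonocytes cultured with vehicle. They are 6 of the 18193 genes that a probe set of the array named alone. They were chosen by their large negative differences between RA and vehicle on these same arrays, so their differences between RA and vehicle are given as a description, without a test. Gonocytes are the precursors of spermatogonia in the newborn testis. They came from mice at 2 days post partum, were enriched with magnetic beads against THY1, and spent 8 h in culture without feeder cells, serum or growth factors. The RA group (2 samples) received 100 nM RA, and the vehicle group (2 samples) received ethanol. The labels name no strain and no genetic change, and leave unsaid whether the samples are separate animals or cultures, so any p-value reflects just the spread among them, and that spread may be technical.

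RA is a derivative of vitamin A that binds nuclear receptors on DNA and so switches target genes on or off. In the testis it is known to push germ cells towards differentiation and meiosis, and in neural tissue it is a known regulator of differentiation. Many neuronal genes are silenced outside the nervous system by the repressor REST and its partners, which bind a DNA element called RE1. The 6 genes fall into 4 roles. Slc6a4 encodes the transporter that takes serotonin back into cells. Cbln2 and Nptx1 encode secreted proteins that organise synapses. Snap25 encodes a SNARE protein that drives the fusion of synaptic vesicles with the membrane. Nefm, a neurofilament subunit, and Dclk1, a kinase of the doublecortin family that binds microtubules, belong to the cytoskeleton. THY1 itself is also known as a surface protein of neurons.

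The regulatory sequence next to the start of 2 of the 6 genes was taken from the RefSeq promoter table (GRCm38.p6). It is shown because the elements through which RA receptors and REST act are short sequences that can be looked for in it. Each window runs from 250 bases before the start to 50 bases after it, 5′ to 3′, all on the plus strand. Slc6a4 has 1 such window, at chr11:76998347-76998646, and Dclk1 has 2, at chr3:55242114-55242413 and chr3:55461478-55461777. Capitals mark matches on either strand to the receptor hexamers, which are AGGTCA or GGGTCA or AGTTCA or GGTTCA, and to the RE1 parts, which are CAGCACC and GGACAG.
Slc6a4: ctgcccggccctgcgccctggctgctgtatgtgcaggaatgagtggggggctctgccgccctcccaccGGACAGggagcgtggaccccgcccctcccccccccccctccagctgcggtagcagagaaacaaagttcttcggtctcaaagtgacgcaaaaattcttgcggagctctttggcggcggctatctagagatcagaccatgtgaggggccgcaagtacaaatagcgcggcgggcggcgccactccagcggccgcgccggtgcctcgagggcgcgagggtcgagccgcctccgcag
Dclk1, first start: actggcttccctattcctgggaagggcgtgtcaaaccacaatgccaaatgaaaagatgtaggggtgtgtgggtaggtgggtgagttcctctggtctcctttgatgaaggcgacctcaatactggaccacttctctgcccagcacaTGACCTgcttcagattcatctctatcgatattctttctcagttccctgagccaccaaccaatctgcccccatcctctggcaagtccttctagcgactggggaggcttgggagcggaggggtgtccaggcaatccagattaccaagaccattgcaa
Dclk1, second start: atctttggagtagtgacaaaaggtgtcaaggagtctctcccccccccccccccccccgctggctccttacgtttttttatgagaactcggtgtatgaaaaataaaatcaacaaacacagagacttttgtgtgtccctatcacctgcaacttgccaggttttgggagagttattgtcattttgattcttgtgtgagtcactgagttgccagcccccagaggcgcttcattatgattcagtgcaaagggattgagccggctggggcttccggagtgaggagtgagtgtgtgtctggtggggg

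The Slc6a4 window held 1 match, to the RE1 part GGACAG, which 22.2% of all 32851 promoter windows hold. In the window of the first Dclk1 start there was 1 match, to AGGTCA on the opposite strand (written as TGACCT), which 16.3% of all windows hold. The second Dclk1 window held none of these letters. No direct repeat of the hexamers with a spacer of 1, 2 or 5 bases and no pair of RE1 parts with a spacer of 2 bases was found in the 3 windows. Such repeats are in 0.222%, 0.268% and 0.0974% of all windows, and the RE1 pair is in 0.0365%. Nptx1 (chromosome 11), Nefm (chromosome 14) and Snap25 (chromosome 2) had no entry that was used here. Member windows on chromosome 18, where Cbln2 lies, were left out, so Cbln2 was not looked at.

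RNA from each sample was amplified and hybridised to 1 Affymetrix Mouse Genome 430 2.0 array, which reports a signal for each probe set, a group of short probes against 1 transcript. All 4 arrays had a trimmed mean signal of 125, and precision is limited by there being 4 arrays. As a check of the labels, Stra8, a gene that RA is known to induce in germ cells, had signals of 783 and 1477 with RA, against 188 and 53.3 with vehicle. Differences are given on the scale of log2(signal + 5), which understates those of dim genes. A probe set passed the signal filter when its mean on that scale was in the upper 60% of all probe sets, a signal of about 15.5. Over the whole table limma called 0 of 27022 probe sets at an adjusted p under 0.05, while 447 were lower (1.65%) and 296 higher (1.1%) at an unadjusted p under 0.05. Fits that leave 1 array in a group assume that it varies like the arrays of the other group. In such fits, without RA replicate 2 there were 102 lower and 50 higher calls, without RA replicate 1 there were 45 and 45, without vehicle replicate 1 there was 1 higher call, and without vehicle replicate 2 there were 0. The ratio of 3′ to 5′ signal of the control transcript Actb, a sign of RNA and amplification quality, was 2.08 and 2.32 on the RA arrays, against 1.72 and 1.73 on the vehicle arrays. For Gapdh it was 1.85 and 2.00 with RA, against 1.56 and 1.47 with vehicle. These ratios were higher on both RA arrays, and their part in the results below was not tested.

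Read from the brightest probe set of each gene, all 6 genes had both RA arrays below both vehicle arrays. Of all 13011 genes above the filter, 12.6% had this pattern. Of the 6, 5 were at least 2-fold lower with RA, against 0.384% of all genes. Both counts follow from how the genes were chosen. The median log2 change of the 6 genes was −1.32 (range −1.44 to −0.97), while that of all 13011 genes was 0.0147. Ordered from the most negative change, Slc6a4, Cbln2 and Nptx1 stood at places 7, 8 and 9, Nefm at 15, Snap25 at 20 and Dclk1 at 58. The 5 genes next to each in that order had changes between −1.63 and −1.36 around the first 3, between −1.34 and −1.24 around Nefm, between −1.24 and −1.20 around Snap25 and between −0.98 and −0.96 around Dclk1. Their mean signals lay between the 60.7th and the 78.5th percentile of all probe sets, which describes brightness on the array and not the number of transcripts. Bulk RNA cannot tell fewer cells of a type from less RNA per cell.

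**Figure D1:**
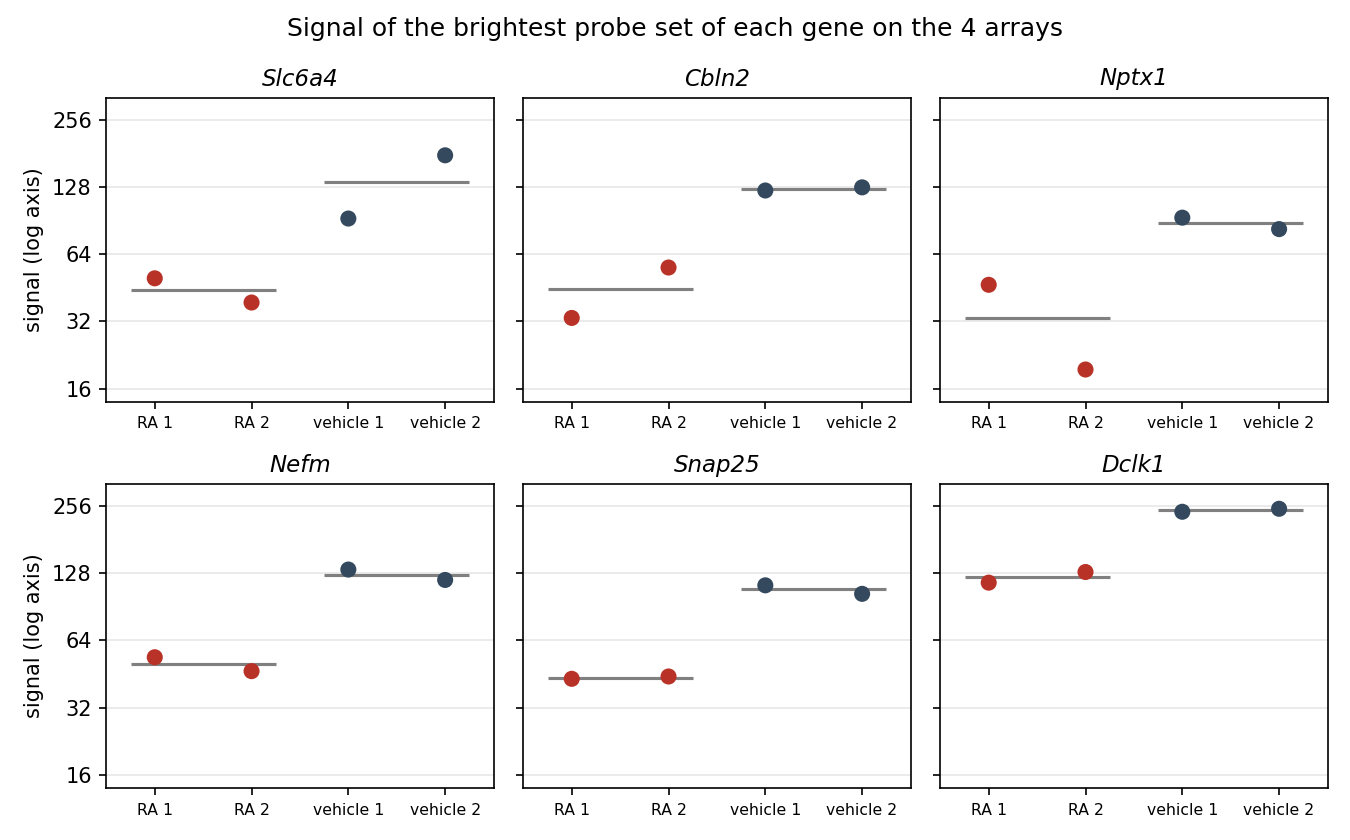
Signal of the brightest probe set of each of the 6 genes (vertical axis, log scale) on the RA arrays (red) and the vehicle arrays (dark), 1 point per array, with a grey line at the mean of each group. In every panel both RA points lie below both vehicle points, and the vehicle signals run from 82.9 for Nptx1 to 249 for Dclk1.

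Slc6a4, the serotonin transporter, had signals of 49.9 and 38.9 on the RA arrays (replicates 1 and 2), against 92.4 and 177 on the vehicle arrays. The vehicle arrays differed more from each other than the RA arrays did, and the groups did not overlap. The mean signal was 44.4 ± 7.79 with RA and 134.8 ± 60.01 with vehicle (SD, n = 2 each). The log2 change was −1.44 ± 0.35 (SE), a 2.71-fold lower level. A single probe set named this gene.

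The size of the Slc6a4 difference depended on the array number. RA 1 lay below vehicle 1 by a log2 difference of −0.83, and RA 2 lay below vehicle 2 by −2.05. The gap between these values, −1.23, was exceeded in size by 1.46% of the 13011 genes, whose median gap was 0.281. Leaving out each array in turn gave log2 changes from −1.89 (without vehicle replicate 1) to −0.99 (without vehicle replicate 2). The labels do not say that equal numbers mark a shared preparation.

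Genes of serotonin and other monoamines were mixed. Of 20 listed, 19 had a probe set and 9 passed the filter, 7 with a negative and 2 with a positive change (median −0.29), and 0 passed the adjusted test in limma. Tph1, which makes the serotonin precursor in tissues outside the brain, was the brightest, with signals of 198 and 831 with RA, against 320 and 862 with vehicle. Its levels followed the array number and the groups overlapped (log2 change −0.37 ± 0.66). Slc18a2, the vesicular monoamine transporter, behaved alike, with 148 and 321 with RA, against 202 and 298 with vehicle (−0.17 ± 0.36).

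Of the enzymes that break monoamines down, Maoa had 167 and 201 with RA, against 127 and 141 with vehicle (0.44 ± 0.22), and −0.24 on its other probe set. Maob had 70.9 and 41.3 with RA, against 63.6 and 98.4 with vehicle (−0.51 ± 0.35). The serotonin receptor gene Htr1b had 21.4 and 10.7 with RA, against 27.7 and 21.1 with vehicle (−0.52 ± 0.36). The RA arrays were above the vehicle arrays for the brighter Maoa probe set, and the groups overlapped for Maob and Htr1b.

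Mast cells are a known site of serotonin production in rodents, so their markers are given beside Slc6a4. The summed signal of 11 mast cell markers was 4013 and 11536 with RA, against 6031 and 12532 with vehicle, so it followed the array number and the groups overlapped. Mcpt2 and Cma1, mast cell proteases and the brightest 2, had 886 and 2370, and 777 and 2334, with RA, against 1258 and 2673, and 1033 and 2071, with vehicle. The pair of RA arrays was below the pair of vehicle arrays in 3 of the 10 markers above the filter, Mcpt1, Mcpt4 and Ms4a2, against 12.6% of all genes. Of the 10, 9 had a negative change (median −0.35), against 47.1% of all genes above the filter. In limma 3 of the 10 were lower at an unadjusted p under 0.05, against 1.3% of all genes, and 0 passed after adjustment. Mcpt1 had 64.5 and 75.6 with RA, against 305 and 411 with vehicle. Fcer1a, a subunit of the IgE receptor, was below the filter. Platelets also carry the serotonin transporter, and their 6 markers, 3 above the filter, summed to 306 and 333 with RA, against 247 and 367 with vehicle, with overlap. The part of mast cells and platelets in the Slc6a4 difference was not tested.

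Cbln2, a secreted cerebellin that links neurexins to receptors across the synapse, had signals of 33.2 and 55.8 with RA, against 123 and 127 with vehicle. The vehicle arrays were close to each other, RA replicate 1 was the lowest, and the groups did not overlap. The mean was 44.5 ± 15.98 with RA and 125.4 ± 2.86 with vehicle (SD, n = 2 each), a log2 change of −1.44 ± 0.30 (2.71-fold lower). By array number the log2 differences were −1.75 for number 1 and −1.12 for number 2, and 14.5% of genes had a larger gap between the numbers. With each array left out in turn the log2 change lay between −1.77 and −1.10.

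Nptx1, the neuronal pentraxin that clusters AMPA receptors, had 46.7 and 19.5 with RA, against 93.3 and 82.9 with vehicle. Here RA replicate 2 was the lowest, and the groups did not overlap. The mean was 33.1 ± 19.2 with RA and 88.1 ± 7.34 with vehicle (SD, n = 2 each), a log2 change of −1.38 ± 0.39 (2.61-fold lower). The log2 differences were −0.93 for number 1 and −1.84 for number 2, and 4.61% of genes had a larger gap. Without RA replicate 1 the log2 change was −1.92 and without RA replicate 2 it was −0.85. A second probe set, below the filter, had 9.89 and 5.37 with RA, against 17.7 and 11.5 with vehicle, a log2 change of −0.64 in the same order of groups at a signal close to the pseudocount.

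The relatives and partners of these 2 genes did not share one direction. Among cerebellins, neurexins and their partners, 13 genes were listed, 11 had a probe set and 8 passed the filter, 4 with a negative and 4 with a positive change (median 0.00823). Cbln1, the closest relative with a bright probe set, had 497 and 309 with RA, against 545 and 318 with vehicle (−0.09 ± 0.32, and −0.43 and −0.32 on its other 2 probe sets). Nlgn2, a neuroligin that binds neurexins, had 230 and 222 with RA, against 230 and 213 with vehicle (0.03 ± 0.20). In both genes the groups overlapped.

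Lrrtm1, a postsynaptic partner of neurexins, had 5.96 and 15.98 with RA, against 23.1 and 38.3 with vehicle. Its groups did not overlap (log2 change −1.20 ± 0.41, limma unadjusted p = 0.0185, adjusted p = 0.999996). The neurexin genes Nrxn2 and Nrxn3 were higher on both RA arrays. Nrxn2 had 119 and 112 with RA, against 108 and 63.97 with vehicle (0.44 ± 0.30). Nrxn3 had 46.7 and 26.7 with RA, against 25.1 and 24.98 with vehicle (0.43 ± 0.34), and 0.04 on its other probe set.

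Pentraxins and AMPA receptor genes had 10 listed, 9 with a probe set and 7 above the filter, 5 with a negative and 2 with a positive change (median −0.04), and 0 passed the adjusted test in limma. Nptx2, the second neuronal pentraxin, had 139 and 79.4 with RA, against 139 and 80.6 with vehicle (−0.01 ± 0.36). Grip1, which anchors AMPA receptors, had 106 and 56.1 with RA, against 106 and 59.9 with vehicle (−0.04 ± 0.38). Both genes followed the array number and not the treatment.

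The AMPA receptor subunits differed in sign. Gria2 had 19.1 and 12.8 with RA, against 21.1 and 34.7 with vehicle (−0.63 ± 0.34), and its other probe set gave −0.47. Gria3 had 41.2 and 61.7 with RA, against 42.3 and 88.4 with vehicle (−0.26 ± 0.39). Gria4 had 38.1 and 37.8 with RA, against 21.2 and 28.2 with vehicle (0.54 ± 0.30). Both RA signals were below both vehicle signals for Gria2 and above them for Gria4, and the groups overlapped for Gria3.

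Snap25 had the tightest replicates of the synaptic genes, with 43.1 and 44.1 with RA, against 113 and 103 with vehicle. The RA arrays were nearly equal and the groups did not overlap. The mean was 43.6 ± 0.738 with RA and 108.2 ± 6.70 with vehicle (SD, n = 2 each), a log2 change of −1.22 ± 0.26 (2.33-fold lower). Its second probe set, built on another database sequence, had 24.7 and 25.8 with RA, against 64.6 and 79.7 with vehicle, a log2 change of −1.35 ± 0.29. Both probe sets thus had the RA arrays below the vehicle arrays, as had 15.2% of all probe sets above the filter. Snap25 was chosen by this contrast, so nothing is read from that count. The log2 differences by number were −1.29 and −1.14, and leaving out each array gave −1.28 to −1.16.

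The other genes of vesicle fusion were spread around 0. Of 26 listed, 24 had a probe set and 19 passed the filter, 10 with a negative and 9 with a positive change (median −0.07), and 0 passed the adjusted test in limma. Snap47 and Snap23, relatives of Snap25 that act in general membrane fusion, were the brightest. Snap47 had 1124 and 1559 with RA, against 1211 and 1051 with vehicle (0.23 ± 0.24, and −0.15 on its other probe set). Snap23 had 481 and 411 with RA, against 532 and 502 with vehicle (−0.22 ± 0.19), but 0.27 and 0.34 on its other 2 probe sets, so its probe sets disagreed in sign.

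The complexins, which clamp SNARE complexes, had higher signals on both RA arrays in 2 genes. Cplx2 had 87.9 and 98.4 with RA, against 41.7 and 48.0 with vehicle, and its groups did not overlap (0.98 ± 0.27, limma unadjusted p = 0.00651, adjusted p = 0.999996), while its other 2 probe sets gave 0.25 and 0.36. Cplx1 had 29.5 and 27.7 with RA, against 16.5 and 18.0 with vehicle (0.59 ± 0.29). Vamp2, the vesicle SNARE that pairs with SNAP25, had 92.0 and 132 with RA, against 167 and 208 with vehicle (−0.73 ± 0.26, limma unadjusted p = 0.0234, adjusted p = 0.999996), and 0.03 on its other probe set.

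Nefm, the medium neurofilament subunit that supports axon calibre, had 53.8 and 46.6 with RA, against 133 and 119 with vehicle. Both groups were tight and did not overlap. The mean was 50.2 ± 5.08 with RA and 126.1 ± 9.55 with vehicle (SD, n = 2 each), a log2 change of −1.25 ± 0.25 (2.38-fold lower). The log2 differences by number were −1.23 and −1.27, the closest pair among the 6 genes, and 92.7% of all genes had a larger gap between the numbers.

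The list of neurofilaments and other filament or axonal genes had 11 genes, all with a probe set, and 10 above the filter, 4 with a negative and 6 with a positive change (median 0.13), and 0 passed the adjusted test in limma. Nefl, the light subunit that co-assembles with Nefm, had 53.9 and 30.6 with RA, against 80.1 and 64.6 with vehicle. Its groups did not overlap (−0.75 ± 0.33). Ina, which encodes alpha-internexin, had 210 and 121 with RA, against 279 and 193 with vehicle (−0.53 ± 0.31), and −0.34 and −0.17 on its other 2 probe sets.

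Nefh, the heavy subunit, had 155 and 83.3 with RA, against 116 and 89.5 with vehicle (0.15 ± 0.33). The filament genes of other cells included Nes, of progenitor cells, with 321 and 234 with RA, against 237 and 187 with vehicle (0.37 ± 0.24), and Vim, of mesenchymal cells, with 2596 and 5366 with RA, against 2883 and 3672 with vehicle (0.20 ± 0.37). Dst, a cytoskeletal linker, had 1304 and 1662 with RA, against 1320 and 1410 with vehicle (0.11 ± 0.23). The groups overlapped in these 4 genes. On this list Nefl and Gap43 had both RA signals below both vehicle signals, and Tubb3 had both above. Gap43, a growth cone protein named after its values were seen, had 16.67 and 9.18 with RA, against 23.5 and 16.69 with vehicle (−0.50 ± 0.34). Its groups thus nearly touched. Tubb3, also on the neuron list, had 36.0 and 42.6 with RA, against 33.6 and 30.3 with vehicle (0.26 ± 0.29). Prph had 31.6 and 18.8 with RA, against 24.0 and 8.25 with vehicle (0.59 ± 0.44), with overlap.

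Dclk1 was named by 9 probe sets, 6 of them above the filter, and these did not agree. The brightest had 116 and 130 with RA, against 241 and 249 with vehicle, with tight groups that did not overlap. The mean was 122.8 ± 9.51 with RA and 244.8 ± 5.34 with vehicle (SD, n = 2 each), a log2 change of −0.97 ± 0.21 (1.96-fold lower). The log2 differences by number were −1.02 and −0.91.

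Another 3 probe sets of Dclk1 gave negative differences too. The next brightest had 87.6 and 109 with RA, against 201 and 183 with vehicle (−0.94 ± 0.23). The one after it had 84.2 and 109 with RA, against 169 and 163 with vehicle (−0.76 ± 0.24). The one after that had 51.0 and 64.3 with RA, against 94.8 and 103 with vehicle (−0.74 ± 0.26). The last 2 of these and the brightest were built on the same database sequence and share a target, so the 4 rest on 2 sequences. All 4 had both RA arrays below both vehicle arrays, as had 15.2% of all probe sets above the filter. Dclk1 was chosen by this contrast, so nothing is read from that count.

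The other 2 above the filter differed little between groups. The brighter of them had 55.5 and 54.3 with RA, against 68.9 and 60.2 with vehicle (−0.21 ± 0.27). The dimmer had 67.0 and 42.1 with RA, against 65.6 and 36.8 with vehicle (0.10 ± 0.37), and it followed the array number. The 3 probe sets below the filter gave −0.30, −0.57 and 0.26 at signals of 0.558 to 12.1. Averaged over all 9 probe sets, Dclk1 had a log2 change of −0.46 (1.37-fold lower). The annotation places none of these probe sets on a particular transcript of the gene.

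**Figure D2:**
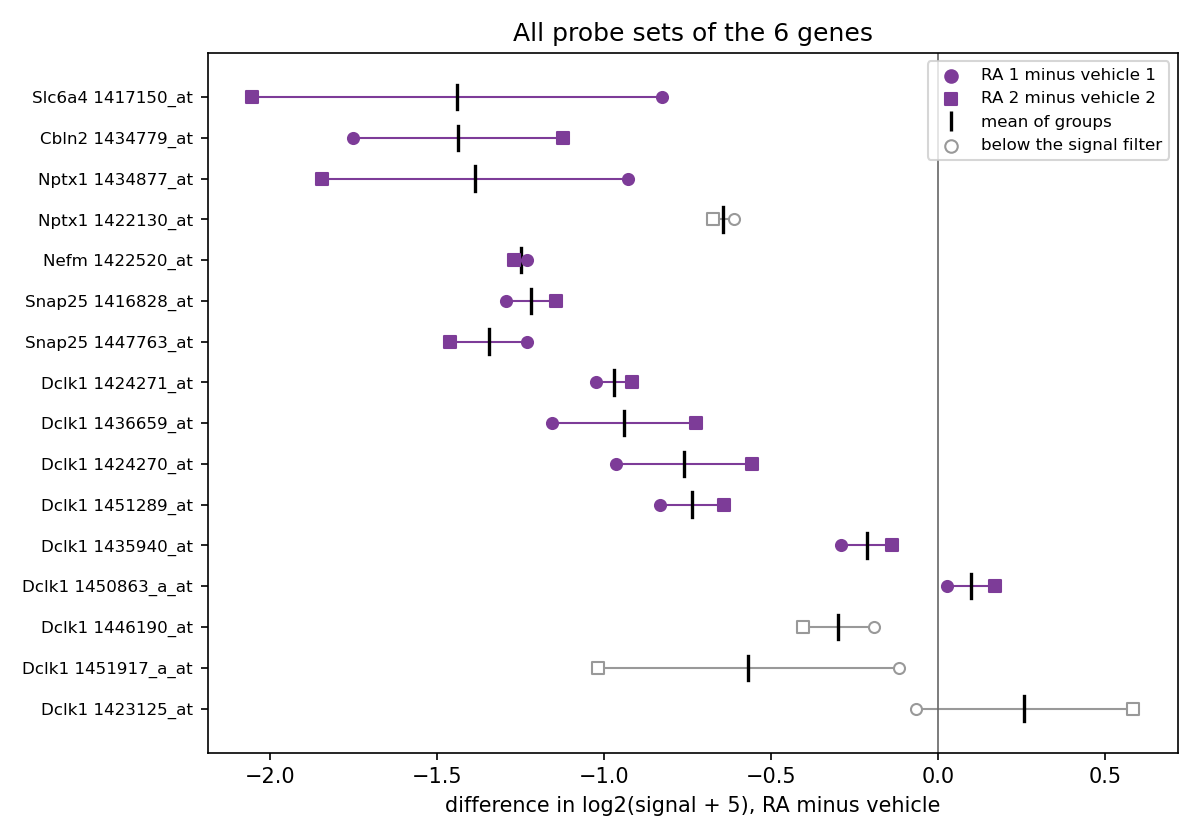
Difference between RA and vehicle in log2(signal + 5) for all 16 probe sets of the 6 genes, with circles for number 1, squares for number 2, a black bar for the difference of group means, and open grey symbols for the 4 probe sets below the filter. The 2 Snap25 probe sets lie close together at −1.22 and −1.35, while those of Dclk1 run from −0.97 to 0.26.

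In all, 16 probe sets named 1 of the 6 genes, and 12 of these passed the filter. In 11 of the 12, each RA array was below each vehicle array, a pattern found in 15.2% of the 27022 probe sets above the filter. The exception was the dimmest of the 6 Dclk1 probe sets above the filter. The 12 share the contrast that chose the genes, so nothing is read from their count. Over the whole set, including the dim probe sets, 14 of 16 had this pattern and 2 overlapped, both from Dclk1. The share over all probe sets was counted only above the filter, so nothing is read from the 14 either.

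Doublecortins and neuronal microtubule proteins had 16 genes listed, all with a probe set, and 13 above the filter, 6 with a negative and 7 with a positive change (median 0.00864), and 0 passed the adjusted test in limma. The nearest relatives of Dclk1 did not share its difference. Dclk2 had 71.5 and 74.1 with RA, against 86.8 and 44.7 with vehicle (0.20 ± 0.34), and Dclk3 had 55.2 and 35.3 with RA, against 55.3 and 34.7 with vehicle (0.01 ± 0.35). Dcx, the doublecortin of migrating neurons, was below the filter.

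Stmn2, also on the neuron list and a stathmin of growing axons that destabilises microtubules, went the other way, with 59.8 and 53.3 with RA, against 30.7 and 13.9 with vehicle. Its groups did not overlap (1.24 ± 0.37, limma unadjusted p = 0.00994, adjusted p = 0.999996). Map2, a dendritic microtubule protein, had 139 and 94.1 with RA, against 151 and 153 with vehicle (−0.40 ± 0.26), and Map1a had 32.1 and 33.2 with RA, against 41.2 and 39.5 with vehicle (−0.27 ± 0.28, and −0.04 on its other probe set). The 2 brightest genes, both found well beyond neurons, overlapped between groups: Stmn1 had 1590 and 2823 with RA, against 1756 and 2233 with vehicle (0.10 ± 0.32), and Dpysl2 had 1323 and 1966 with RA, against 1545 and 1986 with vehicle (−0.12 ± 0.27).

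REST and its partners, which keep many neuronal genes silent in other cells, had 10 of 10 listed genes above the filter. Of these, 1 had a negative and 9 a positive change (median 0.16), and 0 passed the adjusted test in limma. Rest itself was bright, with 1400 and 1456 with RA, against 1483 and 1527 with vehicle (−0.08 ± 0.21), and −0.20 to 0.02 on its other 3 probe sets. Rest had both RA arrays below both vehicle arrays, but its difference was smaller than its error. Kdm1a, the histone demethylase of the complex, had 1286 and 1502 with RA, against 1280 and 1097 with vehicle (0.23 ± 0.22). The deacetylase gene Hdac2 had 1079 and 1130 with RA, against 962 and 951 with vehicle (0.21 ± 0.20), and the scaffold gene Sin3a had 271 and 239 with RA, against 242 and 195 with vehicle (0.22 ± 0.21).

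Over the 7 lists, 106 genes were named, 100 had a probe set and 76 passed the filter. Of the 76, 37 had a negative change (48.7%, against 47.1% of all genes above the filter). In limma 0 of the 76 passed an adjusted p under 0.05. At an unadjusted p under 0.05, 2 were lower (2.63%, against 1.3% of all genes above the filter) and 2 were higher (2.63%, against 1.41%). Each RA array was below each vehicle array in 13 (17.1%, against 12.6%) and above them in 13 (17.1%, against 14.1%). Of these, 1 of the 13 below and 4 of the 13 above came from the REST list, whose genes are not neuronal.

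**Figure D3:**
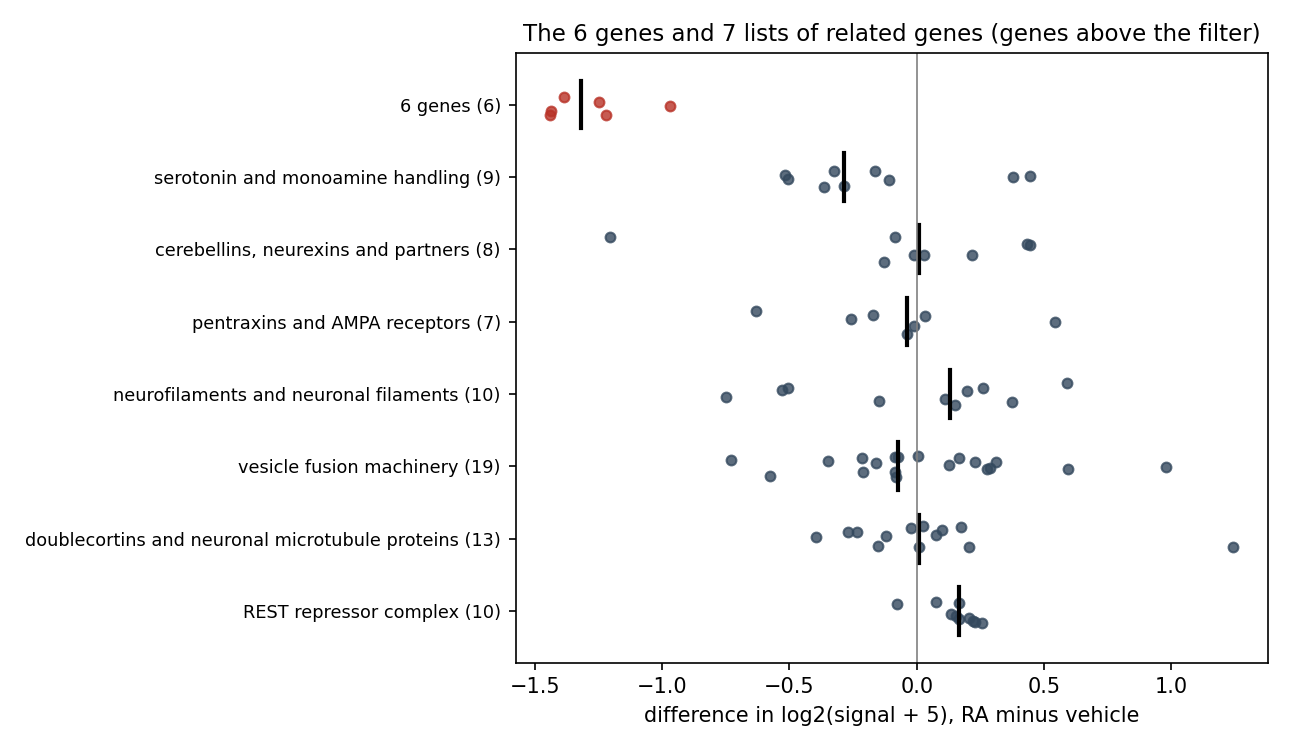
Difference between RA and vehicle in log2(signal + 5) for the 6 genes (red) and for the genes above the filter on 7 lists of related genes (dark), 1 point per gene, with a black bar at the median and the number of genes in brackets. The 6 genes lie between −1.44 and −0.97, where they were chosen to lie, and the list medians lie between −0.29 and 0.16.

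The 6 genes did not share one profile over the 4 arrays. Likeness was measured as the root mean square difference between the log2 values of 2 genes, each centred on its own mean. Nefm and Snap25 were the closest pair (0.0795), followed by Snap25 and Dclk1 (0.144) and by Nefm and Dclk1 (0.197). Cbln2 and Nptx1, which differ in which RA array was the lower, were the farthest apart (0.623). Slc6a4 was at least 0.387 from each of the others.

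**Figure D4:**
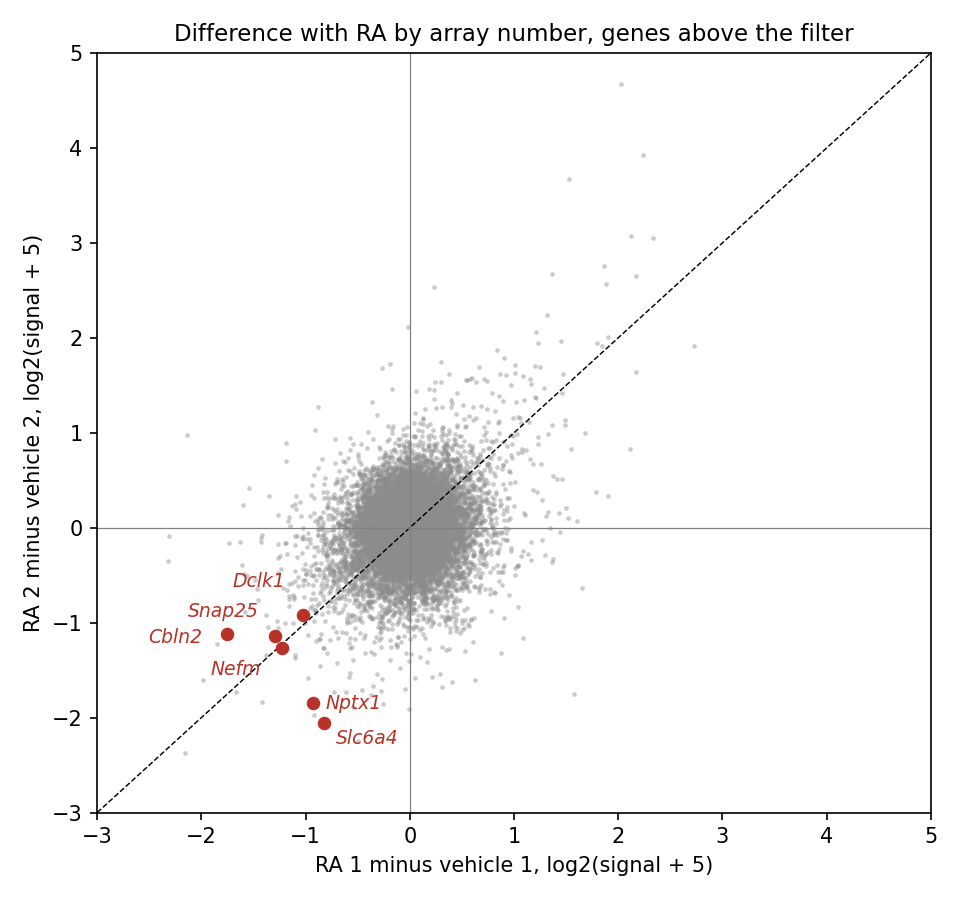
Difference between RA 1 and vehicle 1 (horizontal) and between RA 2 and vehicle 2 (vertical) in log2(signal + 5) for the 13011 genes above the filter (grey) and the 6 genes (red), with a dashed line where both are equal. Nefm, Snap25 and Dclk1 lie near the line, Slc6a4 and Nptx1 lie below it and Cbln2 above it.

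Among the other 13005 genes above the filter, those with the most similar profile over the 4 arrays were found for each gene. For Slc6a4 they were Dpt, an extracellular matrix protein (0.123), and Sfrp2, a secreted Wnt modulator (0.178). Dpt had 125 and 112 with RA, against 211 and 381 with vehicle, and Sfrp2 had 332 and 265 with RA, against 460 and 877 with vehicle. Like Slc6a4, both were highest on vehicle replicate 2 and lowest on RA replicate 2.

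For Nptx1 the most similar genes were Zbtb16, a transcriptional repressor of spermatogonial stem cells (0.0638), and Sprr2f, a small proline-rich protein (0.159). Zbtb16 had 368 and 174 with RA, against 701 and 699 with vehicle, a log2 change of −1.45, but −0.63 and −0.21 on its other 2 probe sets. Sprr2f had 103 and 34.4 with RA, against 152 and 141 with vehicle. For Cbln2 they were the urea transporter gene Slc14a1 (0.160) and the antimicrobial peptide gene Camp (0.194). Slc14a1 had 39.6 and 57.0 with RA, against 111 and 112 with vehicle, and Camp had 29.2 and 59.4 with RA, against 88.9 and 104 with vehicle.

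Snap25 was most like Tcl1, a coactivator of the kinase AKT (0.0936), and Adpgk, a glucokinase (0.103), and Nefm was most like Adpgk (0.142) and Fbxo32, a ubiquitin ligase subunit (0.144). Tcl1 had 91.0 and 108 with RA, against 226 and 230 with vehicle. Adpgk had 140 and 151 with RA, against 373 and 392 with vehicle, and Fbxo32 had 140 and 99.1 with RA, against 265 and 233 with vehicle. Dclk1 was most like Ret, the receptor tyrosine kinase through which GDNF acts (0.0358), and Fbxo41, an F-box protein (0.0736). Ret had 254 and 277 with RA, against 514 and 562 with vehicle, and Fbxo41 had 105 and 130 with RA, against 217 and 219 with vehicle. Of these genes Zbtb16 and Ret were on the germ cell marker list and Dpt was on the stromal list. None was on a list of neuronal genes, but those lists hold few of the genes searched and not every gene known from neurons. Nothing is therefore read from this absence.

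Markers of the cells that the preparation could hold were read as sums of signals. The neuron list had 14 genes, 12 with a probe set and 10 above the filter, and its sum was 1214 and 1270 with RA, against 1448 and 1374 with vehicle. Both RA sums were lower than both vehicle sums. The brightest gene of the list, the adhesion protein gene Ncam1, had 771 and 913 with RA, against 1026 and 1075 with vehicle. Its log2 change was −0.32 ± 0.20, and −0.44 to −0.15 on its other probe sets above the filter. Without it the sum was 443 and 358 with RA, against 421 and 299 with vehicle, and the groups overlapped. Isl1, the next brightest, had 160 and 80.6 with RA, against 135 and 70.3 with vehicle. Of the 10 markers above the filter, 6 had a negative and 4 a positive change (median −0.08). The changes ran from −0.63 ± 0.39 for Rbfox3 to 1.24 ± 0.37 for Stmn2. Rbfox3 had 27.0 and 13.6 with RA, against 43.0 and 24.6 with vehicle, with overlap. Of the neuron markers Scg2 and Phox2a were below the filter and none was at 0, with signals of 2.07 to 160 for the 11 genes other than Ncam1. The part of neuronal cells in the differences of the 6 genes was not tested.

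Schwann and neural crest markers, 6 with a probe set and 2 above the filter, summed to 548 and 638 with RA, against 795 and 606 with vehicle. Their groups overlapped. Erbb3, a neuregulin receptor, had 404 and 508 with RA, against 672 and 513 with vehicle. Mbp, a myelin protein, had 105 and 106 with RA, against 88.1 and 72.0 with vehicle, on its brightest probe set (0.38 ± 0.25). The other Mbp probe sets above the filter gave −0.35 to −0.04, so they disagreed with it in sign. The defining neural crest factor Sox10 was below the filter, as was Foxd3.

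The preparation gave signals for germ cell markers and also for markers of other testis cells. The 10 germ cell markers, all above the filter, summed to 8131 and 8595 with RA, against 8866 and 8820 with vehicle. Both RA sums were lower by a small margin. Of the 10, 8 had a negative change (median −0.16, lowest −1.45 for Zbtb16), against 47.1% of all genes above the filter. Both RA signals were below both vehicle signals in 3, Dazl, Zbtb16 and Ret, against 12.6% of all genes. In limma 2 were lower at an unadjusted p under 0.05, against 1.3% of all genes, and 0 passed after adjustment. Sall4, a stem cell transcription factor, had 2311 and 3776 with RA, against 2268 and 2530 with vehicle, and Dazl, a germ cell RNA-binding protein, had 1514 and 1296 with RA, against 1606 and 1603 with vehicle. Sertoli cell markers summed to 4067 and 5416 with RA, against 4020 and 5154 with vehicle, with Clu at 1672 and 2666 with RA, against 1744 and 2319 with vehicle, and Inhbb at 495 and 715 with RA, against 650 and 827 with vehicle. Stromal markers summed to 7486 and 9708 with RA, against 7022 and 8577 with vehicle, with Acta2 at 2218 and 3339 with RA, against 2059 and 2467 with vehicle, and Col1a1 at 1513 and 2264 with RA, against 1574 and 2097 with vehicle. The Sertoli factors Wt1 and Sox9 had both RA signals above both vehicle signals. Wt1 had 353 and 308 with RA, against 238 and 207 with vehicle (0.56 ± 0.20), and Sox9 had 620 and 534 with RA, against 446 and 424 with vehicle (0.40 ± 0.19). Amh and Fshr, also on the Sertoli list, were below the filter. Amh had 9.01 and 7.11 with RA, against 1.66 and 11.9 with vehicle. The Sertoli and stromal sums overlapped between the groups.

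Leydig cell markers summed to 1509 and 1978 with RA, against 1374 and 2495 with vehicle, with Cyp11a1 at 660 and 1156 with RA, against 700 and 1308 with vehicle, and Star at 467 and 443 with RA, against 335 and 521 with vehicle. Macrophage markers summed to 637 and 1328 with RA, against 777 and 1608 with vehicle, with Lyz2 at 243 and 713 with RA, against 426 and 857 with vehicle, and Csf1r at 87.2 and 174 with RA, against 92.7 and 218 with vehicle. Both lists followed the array number. Among platelet markers Pf4 was at 57.4 and 213 with RA, against 102 and 279 with vehicle, and Vwf was at 67.8 and 45.3 with RA, against 96.9 and 40.1 with vehicle. The third platelet marker above the filter, Ppbp, had 162 and 51.9 with RA, against 20.2 and 10.1 with vehicle, so both RA arrays were higher (2.32 ± 0.52, limma unadjusted p = 0.00216, adjusted p = 0.999996). Endothelial markers summed to 280 and 330 with RA, against 247 and 222 with vehicle, the one list with both RA sums above both vehicle sums. Robo4 had 69.3 and 60.2 with RA, against 46.2 and 45.6 with vehicle, and Tek had 71.7 and 58.4 with RA, against 55.5 and 29.1 with vehicle.

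**Figure D5:**
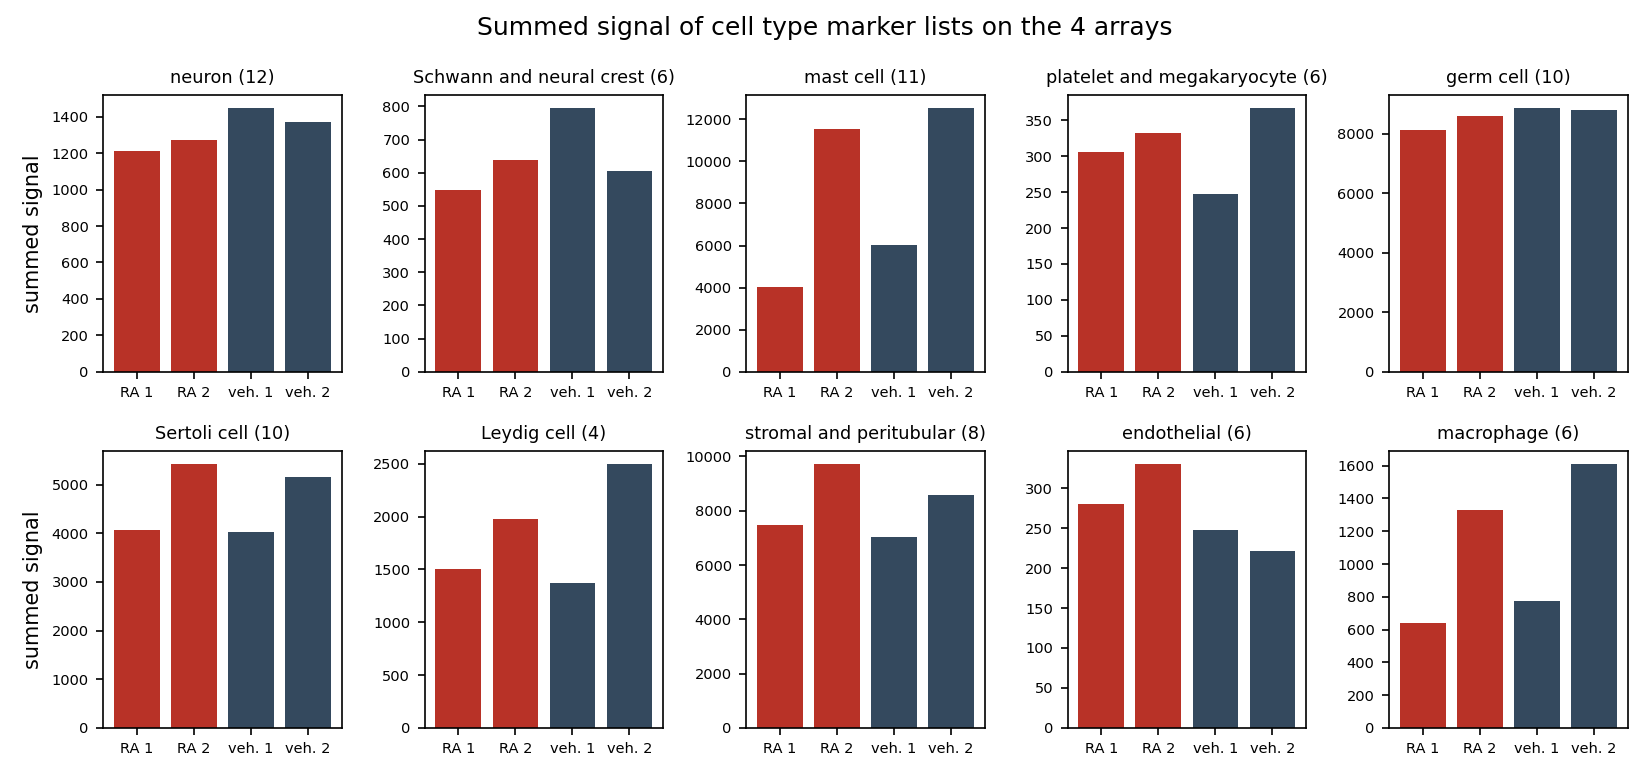
Summed signal of 10 lists of cell type markers (vertical axes, linear, starting at 0) on the RA arrays (red) and the vehicle arrays (dark), with the number of genes summed in brackets. Mast cell, platelet, Sertoli, Leydig, stromal and macrophage sums are higher on number 2 than on number 1 in both groups, and germ cell sums lie between 8131 and 8866 on all 4 arrays.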

How the data were processed

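RNA from 4 samples of THY1-enriched gonocytes was measured on Affymetrix Mouse Genome 430 2.0 arrays, 1 per sample. Per the labels, amplification started from 75 ng of RNA (NuGEN Ovation, version 2) and GCOS 1.2 read the images. The deposited values are linear intensities, 1 for each probe set of each array. How they were summarised and scaled: not given in the sources used here. Trimmed means were equal (2% cut at each end), so no normalization was added.

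After 64 control probe sets were left out, 45037 remained. Values were taken as log2(intensity + 5), where 5 is the rounded 20th percentile, and 27022 probe sets at or above the 40th percentile of mean log2 values were kept. RA was compared with vehicle in limma 3.58.1 in R 4.3.3 (eBayes with trend, Benjamini-Hochberg over all kept, 2 residual and 5.81 prior degrees of freedom), two-sided, without the replicate number. Symbols came from the platform annotation, updated through Entrez IDs to a GRCm38.p6 table (34741 of 34945 probe sets with 1 gene). Probe sets with several genes (932) or none (9160) were not named. Each gene was read from its brightest probe set, and 13011 of 18193 genes passed. Figures were drawn with matplotlib 3.10.9.

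The 6 genes, the 7 lists of related genes and the 10 marker lists were chosen with earlier results of these data known. Named were the 6 genes with all probe sets, the 2 most similar genes each, per list the 3 smallest p-values and 2 brightest, per marker list the 2 brightest, Rest, and Stra8, Cyp26a1 and Rarb. With RA Cyp26a1 had signals of 164 and 375, against 30.9 and 19.9 with vehicle, and Rarb had 95.4 and 90.5, against 14.9 and 6.56. Nearest relatives and some other list members were added after their values were seen. Alternatives covered the pseudocount, normalization, filter, variance model, replicate number, each array and the mean of all probe sets.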

Additional observations from a re-analysis of the deposited data

How the results depend on the processing

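With 2 arrays per group, each array carries much of every value. The 6 genes kept a negative log2 change under all 14 alternatives (84 of 84 values), and none of these moved a fold by over 1.5 times. Leaving out 1 array could not change a sign, because both RA arrays were below both vehicle arrays in each gene. The filters, the variance model and the replicate block do not enter these log2 changes. The mean of all probe sets changes nothing for a gene with 1 probe set. The genes were also chosen by this difference, so nothing is read from the count of signs. Outside leave-one-out, the pseudocounts of 1 and 20 and the normalizations gave −1.52 to −1.21 for Slc6a4, −1.52 to −1.20 for Cbln2, −1.51 to −1.07 for Nptx1, −1.31 to −1.06 for Nefm, −1.29 to −1.01 for Snap25 and −0.99 to −0.89 for Dclk1. The mean of all probe sets gave −1.01 for Nptx1 and −0.46 for Dclk1. The list medians stayed within the replicate SD in 97 of 98 values and kept their sign in 81. The exception was the pentraxin and AMPA receptor list, at 0.27 without vehicle replicate 1.

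Probe sets called in limma numbered 0 under each other scaling, pseudocount, filter and variance model. Leaving out 1 array gave 0 to 102 lower and 0 to 50 higher calls, and 0 to 1 calls on the lists of related genes (Tph1, without RA replicate 2, named after its value was seen). With the replicate number as a replicate block there were 322 lower and 221 higher calls, and 4 on the lists (Lrrtm1, Vamp2, Cplx2 and Stmn2). Deviations of same-numbered arrays from their group means correlated at 0.53 over the 27022 probe sets, but the labels do not say what the number marks and 2 pairs do not settle it. Signals near 5 carry little information on ratios.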

Other observations

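The hybridisation control transcripts, which are added to each sample in fixed amounts before hybridisation, had a mean signal over 18 probe sets of 1502 and 2999 on the RA arrays, against 1540 and 2214 on the vehicle arrays. They were higher on both arrays numbered 2.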
